A study of Homo sapiens with 8 samples.

Results

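HMOX1, the inducible heme oxygenase, was examined together with 8 other genes of heme and iron handling: BLVRA, BLVRB, ALAS1, FECH, FTH1, FTL, TFRC and SLC40A1. The genes were chosen by name, because HRI, the eIF2α kinase named in the study's title, is regulated by heme. Earlier results of these data were known when they were chosen. All 9 were found by Ensembl identifier among the 60617 genes of the count table, and 8 of them had enough counts to be tested in a fit of 17693 genes. The exception was SLC40A1.

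Messenger RNA of MCF-10A, an established human breast epithelial line that does not form tumours, was sequenced in 8 libraries. Cells named Empty or NeuT were either left untreated or given 1 µM JG-98, an inhibitor of the Hsp70 chaperones, for 12 h, which makes 4 groups of 2 libraries each: untreated Empty, Empty with JG-98, untreated NeuT and NeuT with JG-98. The labels do not say what the Empty and NeuT cells carry, or whether either is a single clone; they give the same parental line and the same growth medium for every group. They also do not say whether the 2 libraries of a group came from separate cultures, so the p-values measure the spread between these libraries, which may be technical.

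Heme is made in a pathway that begins in mitochondria with ALAS1, the rate-limiting enzyme outside red blood cells, and ends there with FECH, which inserts iron into protoporphyrin. HMOX1 opens the heme ring and releases iron, carbon monoxide and biliverdin. BLVRA and BLVRB are biliverdin reductases, of which BLVRA reduces this biliverdin to bilirubin. Cells take up transferrin-bound iron through the receptor TFRC, store it in shells made of the ferritin subunits FTH1 (heavy) and FTL (light), and release it through the exporter SLC40A1, known as ferroportin. When iron is scarce, the iron regulatory proteins ACO1 and IREB2 bind a hairpin in these messenger RNAs, which blocks translation where the hairpin lies ahead of the coding sequence and slows decay where it lies after it.

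Total counts were 55050996 to 56861971 per library, apart from 37341458 in Empty with JG-98 replicate 1. Levels are given as CPM, the counts scaled to a common library total and adjusted by the trimmed mean of M-values. A count of 3 corresponded to 0.0528 to 0.0803 CPM of the total counts, before that adjustment. All 12 epithelial markers were above 1 CPM on average, whereas none of 10 erythroid markers was. Summed marker levels are CPM of the total counts, with no further scaling. The erythroid sum was 0.361 to 0.51 CPM, with HBG1 and HBG2 at 0 in every library. Of 8 macrophage markers, 3 were above 1 CPM, AIF1 and TYROBP were at 0, and the sum was 31.0 to 40.9 CPM. The summed level of 5 endothelial markers, 2 of them above 1 CPM, was 9.23 to 18.1 CPM.

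The iron-responsive hairpin is the sequence that ties 4 of the 9 genes together, and it is shown for that reason. Transcripts of GENCODE release 29 on GRCh38, 1 per gene, were searched on the sense strand for the letters CAGTGN as a 6-base loop, closed by an upper stem of 5 pairs with an unpaired C just below it; G-T pairs were allowed. The motif was found ahead of the coding sequence in FTH1, FTL and SLC40A1, and after the coding sequence in TFRC. Each stretch below is 27 bases, read 5′ to 3′ on the transcribed strand with T for U, and the capitals mark the loop.
FTH1, chr11:61967575-61967601, minus strand: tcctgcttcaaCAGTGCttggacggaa
FTL, chr19:48965336-48965362, plus strand: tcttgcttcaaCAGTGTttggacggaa
SLC40A1, chr2:189580662-189580688, minus strand: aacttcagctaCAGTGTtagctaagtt
TFRC, chr3:196050980-196051006, minus strand: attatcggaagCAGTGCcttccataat
TFRC, chr3:196050576-196050602, minus strand: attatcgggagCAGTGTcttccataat
TFRC, chr3:196050511-196050537, minus strand: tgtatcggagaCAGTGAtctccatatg
TFRC, chr3:196050464-196050490, minus strand: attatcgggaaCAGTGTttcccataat
The same search matched 21 of 18722 genes (0.112%) ahead of the coding sequence and 104 of 19565 genes (0.532%) after it. No match was found by these letters in the searched transcripts of the other 5 genes. Among 76 further genes of heme and iron handling on the lists described below, the motif was found in ALAS2 and TF.

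HMOX1 was the only one of the 8 tested genes called with JG-98 in either line by edgeR; DESeq2 and some other settings also called TFRC lower in Empty, as given with that gene. HMOX1 (ENSG00000100292) lies on the plus strand of chromosome 22, 35380361 to 35394207, in GRCh38, and shares no exonic bases with another gene. Its level was 11.7 and 10.8 CPM in untreated Empty cells and 16.7 and 16.8 CPM with JG-98. In NeuT cells it was 15.4 and 15.0 CPM untreated and 21.5 and 25.2 CPM with JG-98. Treated libraries were above untreated ones in both lines, without overlap, and the treated Empty libraries lay above the untreated NeuT libraries.

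With JG-98, HMOX1 rose 1.49-fold in Empty cells (log2 0.57, SE 0.0975, adjusted p = 0.0134), in a comparison in which 0.339% of all tested genes were called at an adjusted p below 0.05, 0.26% higher and 0.0791% lower. In NeuT cells it rose 1.54-fold (log2 0.62, SE 0.0941, adjusted p = 0.00116), where 3.01% of all tested genes were called, 2.01% higher and 1.01% lower. Its change lay at the 94.9th percentile of all tested genes in Empty and the 94.6th in NeuT. The authors' deposited table gives HMOX1 a log2 fold change of 0.58 in Empty (adjusted p = 0.0256) and 0.62 in NeuT (adjusted p = 0.00192). The call in Empty was lost without any one of the 4 Empty libraries: adjusted p was 0.0986 without untreated replicate 1, 0.31 without untreated replicate 2, 0.211 without JG-98 replicate 1 and 0.104 without JG-98 replicate 2. The call in NeuT held without each library in turn, at an adjusted p of at most 0.0398.

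The rise of HMOX1 was not shown to differ between the lines. The difference of the 2 log2 changes, NeuT minus Empty, was 0.05 (SE 0.135, adjusted p = 0.953). None of the 8 genes was called for such a difference by edgeR, DESeq2 or limma-voom, where edgeR called 0.00565% of all tested genes. With edgeR, 0 of 8 had an unadjusted p below 0.05, beside 7.79% of all tested genes.

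**Figure D1:**
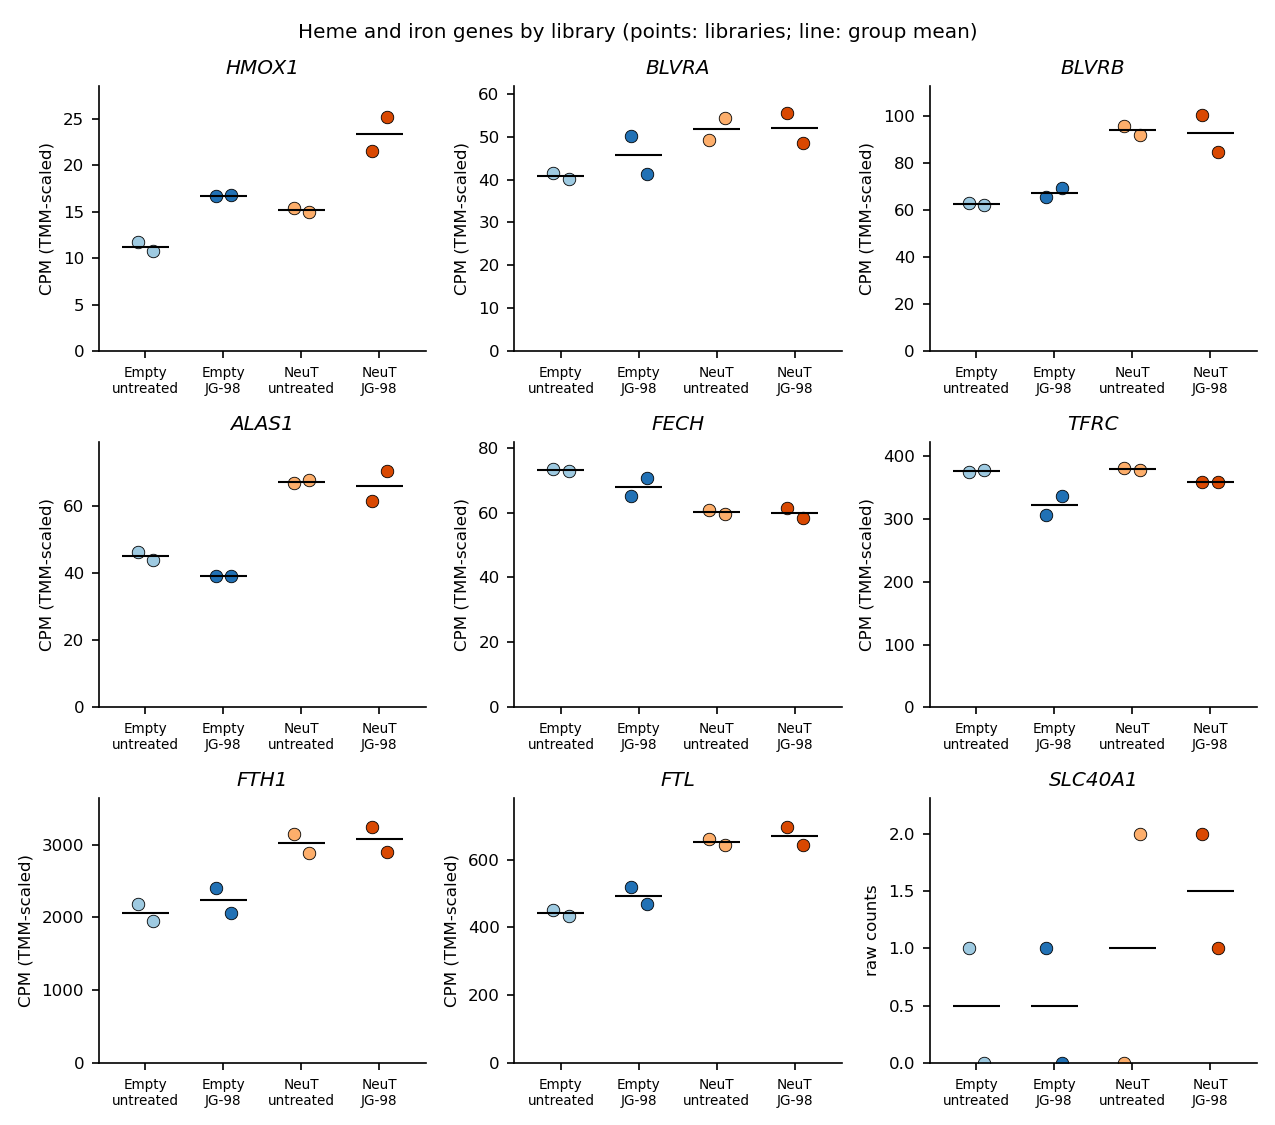
Level of each of the 9 genes in the 8 libraries, in CPM (raw counts for SLC40A1), by group; points are libraries and lines are means of 2. HMOX1 is higher in treated than in untreated libraries of each line. ALAS1, BLVRB, FTH1 and FTL separate by line with NeuT higher, and FECH with NeuT lower.

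Both biliverdin reductases stayed short of the test with JG-98. BLVRA was at 41.5 and 40.1 CPM in untreated Empty cells and 50.2 and 41.2 CPM with JG-98 (log2 0.16, SE 0.0918, adjusted p = 0.606). The BLVRA difference was 0.02 without JG-98 replicate 1 and 0.30 without JG-98 replicate 2, and was called in neither. In NeuT cells BLVRA was at 49.3 and 54.4 CPM untreated and 55.4 and 48.5 CPM with JG-98, so that the groups overlapped. The difference was 0.00 on the log2 scale (SE 0.0903). BLVRB was at 62.9 and 62.1 CPM in untreated Empty cells and 65.5 and 69.4 CPM with the drug (log2 0.11, SE 0.0739, adjusted p = 0.673). Its levels in NeuT cells were 95.8 and 92.0 CPM untreated and 100.5 and 84.5 CPM treated, again overlapping.

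The enzymes at the start and end of heme synthesis did not pass the test with JG-98 either. ALAS1 was at 46.4 and 43.8 CPM in untreated Empty cells and at 39.2 and 39.3 CPM with JG-98 (log2 -0.20, SE 0.0719, adjusted p = 0.324). The treated Empty libraries lay below both untreated ones. In NeuT cells, ALAS1 was at 67.0 and 67.6 CPM untreated and 61.3 and 70.3 CPM treated, which overlap (log2 -0.03, SE 0.0697). FECH was at 73.6 and 72.9 CPM in untreated Empty cells and 65.0 and 70.5 CPM with JG-98 (log2 -0.11, SE 0.0625, adjusted p = 0.597). In NeuT cells FECH was between 58.4 and 61.4 CPM in all 4 libraries.

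TFRC, the transferrin receptor, had the largest difference with JG-98 in Empty cells after HMOX1, and its call depended on the analysis. Its level was 374.6 and 378.3 CPM in untreated Empty cells and 307.0 and 336.5 CPM with JG-98, without overlap (log2 -0.23, SE 0.0542, adjusted p = 0.11). It passed the test with DESeq2 (adjusted p = 0.0159), with no filter on low counts (0.0117), with the Empty libraries fitted alone (0.0396), and without NeuT JG-98 replicate 1 (0.00535) or replicate 2 (0.00532). The authors' deposited table gives TFRC in Empty a log2 fold change of -0.22 and an adjusted p of 0.106. In NeuT cells the level was 380.6 and 378.2 CPM untreated and 358.9 and 358.3 CPM with JG-98 (log2 -0.08, SE 0.0541, adjusted p = 0.511).

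The ferritin subunits differed by less with JG-98. FTH1 was at 2183 and 1951 CPM in untreated Empty cells and 2406 and 2061 CPM with JG-98, which overlap (log2 0.11, SE 0.0818, adjusted p = 0.714). FTL was at 451.7 and 432.4 CPM in untreated Empty cells and 518.5 and 468.3 CPM with JG-98 (log2 0.16, SE 0.0599, adjusted p = 0.354). In NeuT cells the treated and untreated libraries overlapped for both subunits, with a difference of 0.03 for FTH1 (SE 0.0818) and 0.04 for FTL (SE 0.0597) on the log2 scale. Over the 8 tested genes the median log2 difference with JG-98 was 0.11 in Empty and 0.00 in NeuT, beside 0.00 over all tested genes in both.

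**Figure D2:**
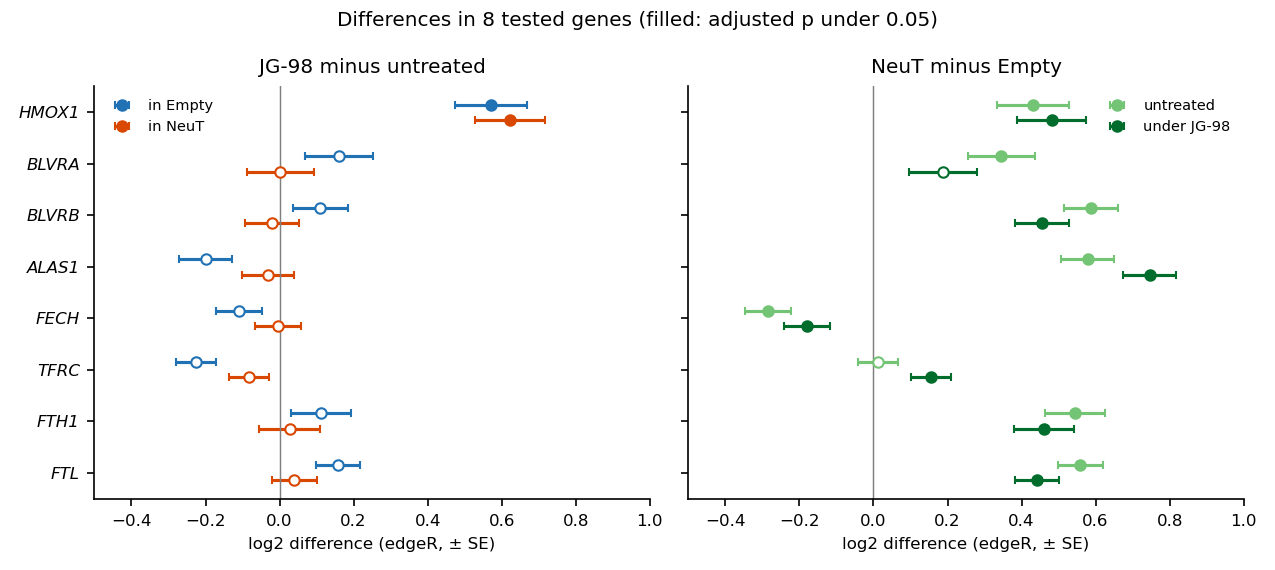
Differences in the 8 tested genes on the log2 scale (edgeR estimate ± SE), with JG-98 minus untreated on the left and NeuT minus Empty on the right; filled points have an adjusted p below 0.05. On the left only HMOX1 is filled, in both lines; on the right 7 genes are filled in untreated cells and 7 under JG-98.

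More of the genes were called between the lines than with the drug. In untreated cells 6 of the 8 tested genes were higher in NeuT than in Empty (HMOX1, BLVRA, BLVRB, ALAS1, FTH1 and FTL), FECH was lower and TFRC was not called. The background is large: 42% of all tested genes were called, 21.2% higher and 20.8% lower. Those were 3748 higher and 3675 lower genes, or 3087 and 4505 with scaling by total counts alone. The median log2 difference was 0.49 over the 8 genes and -0.02 over all tested genes. Under JG-98, 6 genes were higher (HMOX1, BLVRB, ALAS1, FTH1, FTL and TFRC), FECH was lower and BLVRA was not called, where 41.7% of all tested genes were called, 21.7% higher and 20% lower. The median was 0.45 over the 8 genes and 0.00 over all. Of the called genes overall under JG-98, 3839 were higher and 3541 lower in NeuT, or 3106 and 4465 with scaling by total counts alone.

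Levels of some cell type markers differed between the lines as well. The summed level of 6 fibroblast markers, 2 of them above 1 CPM, was 8.02 to 9.37 CPM in Empty and 65.2 to 80.9 CPM in NeuT libraries. DCN, which encodes decorin, had 124 to 204 counts in Empty and 3372 to 4189 in NeuT. COL1A1 was not called in either condition (log2 0.12 and -0.19), and PDGFRA, LUM, COL3A1 and THY1 had 0 to 10 counts per library. The sum of the macrophage markers was 31.0 to 32.7 CPM in Empty and 37.4 to 40.9 CPM in NeuT; of the 3 tested in untreated cells, CD14 (log2 0.80, adjusted p = 4.12e-05) and MARCO (log2 0.72) were called higher in NeuT and CSF1R was not called (log2 0.06). Under JG-98 all 3 were called higher, CSF1R at an adjusted p of 0.0458. PTPRC had 0 to 4 counts. The endothelial sum was 12.6 to 18.1 CPM in Empty and 9.23 to 11.2 CPM in NeuT; in untreated cells PECAM1 was called lower (log2 -0.46) and CDH5 higher (log2 2.22), and KDR, TEK and VWF were not called. Under JG-98 CDH5 and TEK were called higher and PECAM1 and KDR lower. Counts of CDH5 were low, at 2 to 7 in Empty and 16 to 34 in NeuT libraries, as were those of TEK, at 0 to 6 and 13 to 18. The epithelial sum was 27998 to 28716 CPM in Empty and 33827 to 35651 CPM in NeuT. Of the 12 epithelial markers, 9 were called higher in untreated NeuT cells, with KRT6A (log2 0.82) and KRT5 (log2 0.54) the most abundant, while EPCAM (log2 -1.07) and KRT17 (log2 -0.35) were called lower and KRT14 was not called (log2 -0.12). Under JG-98 8 were called higher and 3 lower. The part of these levels in the line differences was not tested. In bulk libraries, more cells of a kind and more RNA per cell cannot be told apart.

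In heme synthesis, the first enzyme was higher and the last lower in NeuT cells. ALAS1 (ENSG00000023330; chromosome 3, 52198086 to 52214327, plus strand) was 1.49-fold higher in untreated NeuT than in untreated Empty cells (log2 0.58, SE 0.0705, adjusted p = 4.03e-06). Under JG-98 it was 1.68-fold higher (log2 0.75, SE 0.0715, adjusted p = 2.29e-07), and all 4 NeuT libraries lay above all 4 Empty libraries. FECH (ENSG00000066926; chromosome 18, 57544389 to 57586702, minus strand) was lower in untreated NeuT cells, at 60.7 and 59.4 CPM against 73.6 and 72.9 CPM (log2 -0.29, SE 0.0625, adjusted p = 0.00136). Under JG-98 the difference in FECH was -0.18 (SE 0.0629, adjusted p = 0.0296). That call was lost under 8 alternatives, with adjusted p from 0.0539 to 0.246, the highest without Empty JG-98 replicate 2.

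The enzymes named here that act between ALAS1 and FECH were not all called. UROD, which removes carboxyl groups from uroporphyrinogen, was at 45.3 and 44.2 CPM in untreated Empty and 75.4 and 84.4 CPM in untreated NeuT cells (log2 0.84, SE 0.0703, adjusted p = 4.66e-08). PPOX, the oxidase that acts just ahead of FECH, was at 5.64 and 5.78 CPM against 10.1 and 10.2 CPM (log2 0.82, SE 0.111, adjusted p = 1.26e-05); 23.7% of its exonic bases are shared with B4GALT3. ALAD, the second enzyme of the route, was higher in NeuT with or without JG-98 (log2 0.33 untreated and 0.35 under JG-98); the untreated call was lost without Empty replicate 1 or NeuT replicate 2, at an adjusted p of up to 0.0609. UROS was called higher in untreated cells (log2 0.19, adjusted p = 0.0241) and was not called under JG-98 (log2 -0.01, adjusted p = 0.904). The UROS call was lost with scaling by total counts and without each of the 4 untreated libraries, at an adjusted p of up to 0.148. CPOX was called in neither, with log2 differences of -0.05 and 0.00.

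**Figure D3:**
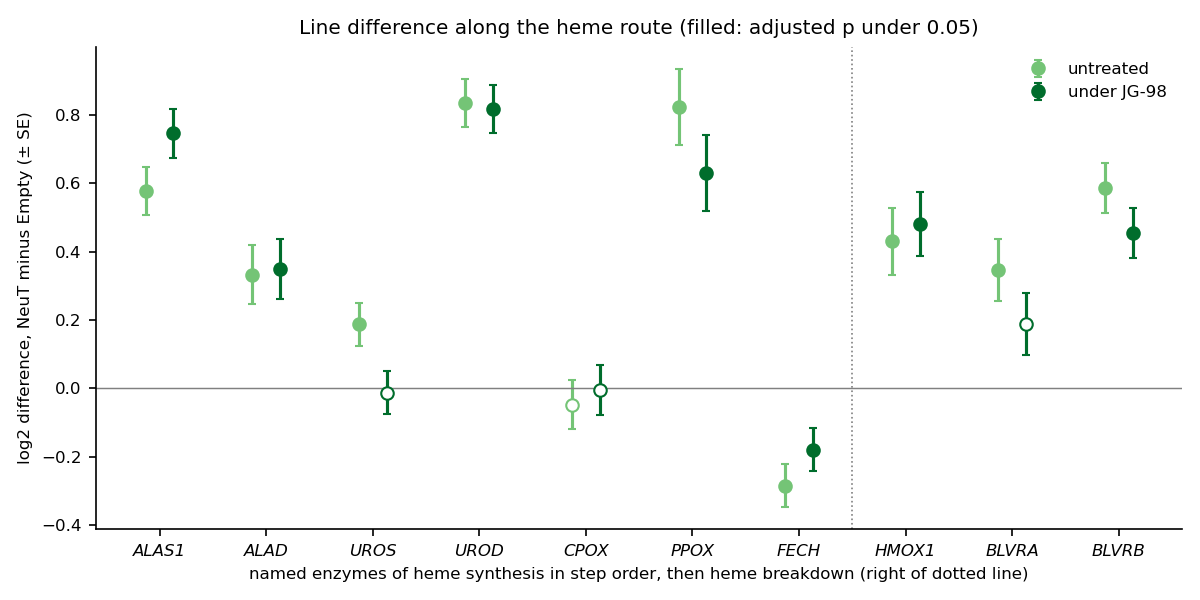
Log2 difference between the lines, NeuT minus Empty (edgeR estimate ± SE), for named enzymes of heme synthesis in step order and, right of the dotted line, of heme breakdown; filled points have an adjusted p below 0.05. ALAS1, ALAD, UROD and PPOX are higher and FECH is lower in NeuT in both conditions.

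Of the heme breakdown genes, HMOX1 was 1.35-fold higher in untreated NeuT than in untreated Empty cells (log2 0.43, SE 0.0972, adjusted p = 0.00174). Under JG-98 it was 1.40-fold higher (log2 0.48, SE 0.0943, adjusted p = 0.000511). BLVRB (ENSG00000090013; chromosome 19, 40447765 to 40465840, minus strand) was 1.5-fold higher untreated (log2 0.59, SE 0.0732, adjusted p = 5.4e-06) and 1.37-fold higher under JG-98 (log2 0.46, SE 0.0734, adjusted p = 8.23e-05). For HMOX1 and BLVRB no library of one line overlapped the other within a condition. BLVRA (ENSG00000106605; chromosome 7, 43758680 to 43807342, plus strand) was 1.27-fold higher untreated (log2 0.35, SE 0.0909, adjusted p = 0.00611). That BLVRA call was lost without untreated Empty replicate 2 (adjusted p = 0.0586) or untreated NeuT replicate 2 (0.0666). Under JG-98 the groups of BLVRA overlapped (log2 0.19, SE 0.0912, adjusted p = 0.115); it was called with no filter on low counts (0.03), without Empty JG-98 replicate 1 (log2 0.33) or without NeuT JG-98 replicate 2 (log2 0.28).

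Both ferritin subunits were higher in NeuT cells by similar amounts. FTH1 (ENSG00000167996; chromosome 11, 61959718 to 61967634, minus strand) was at 3141 and 2889.5 CPM in untreated NeuT cells, 1.46 times its level in untreated Empty cells (log2 0.54, SE 0.082, adjusted p = 0.000137). Under JG-98 FTH1 was at 3243 and 2902 CPM in NeuT cells, 1.38 times the Empty level (log2 0.46, SE 0.082, adjusted p = 0.000526). Without NeuT JG-98 replicate 1 the adjusted p of the latter was 0.072. FTL (ENSG00000087086; chromosome 19, 48965309 to 48966879, plus strand) was at 660.6 and 642.0 CPM in untreated and 696.9 and 642.4 CPM in treated NeuT cells. It was 1.47-fold higher than in Empty cells untreated (log2 0.56, SE 0.06, adjusted p = 9.38e-07) and 1.36-fold higher under JG-98 (log2 0.44, SE 0.0599, adjusted p = 1.31e-05). These are levels of messenger RNA; the hairpins shown above act on translation of both subunits, which was not measured.

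Ferritin counts carry an uncertainty from near-identical copies. Pseudogenes named FTH1P, 17 of 25 with a count, held 21.0% to 23.7% of the counts of FTH1 and its pseudogenes together, and those named FTLP, 5 of 16 with a count, held 6.20% to 6.79% of those of FTL. With the pseudogene counts added, FTH1 and FTL stayed called between the lines in both conditions (untreated log2 0.54 and 0.55, adjusted p = 2.57e-05 and 9.82e-07). FTH1 also shares 63.2% of its exonic bases with BEST1 on the opposite strand, which had 19 to 80 counts.

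TFRC (ENSG00000072274; chromosome 3, 196027183 to 196082096, minus strand) was nearly level between untreated lines, with a log2 difference of 0.01 (SE 0.054, adjusted p = 0.888); it was -0.06 with scaling by total counts. Under JG-98 TFRC was 1.11-fold higher in NeuT (log2 0.16, SE 0.0542, adjusted p = 0.0283). That call was lost under 7 alternatives, among them scaling by total counts (adjusted p = 0.263) and leaving out Empty JG-98 replicate 1 (0.266). The iron exporter SLC40A1 (ENSG00000138449; chromosome 2, 189560579 to 189583758, minus strand) had 1 and 0 counts in untreated Empty, 1 and 0 in treated Empty, 0 and 2 in untreated NeuT and 2 and 1 in treated NeuT libraries. All 8 values are at or below the limit that 0 counts allow, 3 counts or 0.0528 to 0.0803 CPM of the total counts, so no difference between groups is given. Its neighbours WDR75 and ASNSD1, looked up after these values were seen, had 2435 to 3631 and 976 to 1550 counts.

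Per kilobase of exon, the order of levels ran from ferritin to HMOX1. The length is the deposited exonic length of each gene, 2299 bases for HMOX1 and 8772 for FECH. It need not be that of the transcripts expressed, so the order and ratios between genes depend on it. In untreated Empty cells FTH1 was at 1089.5 and 973.6 CPM per kilobase, FTL at 518.6 and 496.4, and TFRC at 48.1 and 48.5. BLVRB followed at 37.2 and 36.8 CPM per kilobase, BLVRA at 22.8 and 22.0, ALAS1 at 18.3 and 17.3, FECH at 8.39 and 8.30 and HMOX1 at 5.10 and 4.70. No neighbours in that order overlapped in this group. In all 4 NeuT libraries BLVRB, at 50.0 to 59.5 CPM per kilobase, stood above TFRC, at 46.0 to 48.8. In untreated NeuT cells HMOX1 was at 6.71 and 6.51 and FECH at 6.92 and 6.77 CPM per kilobase, and in treated NeuT cells HMOX1, at 9.37 and 10.97, stood above FECH, at 6.997 and 6.66. As a share of FECH, the HMOX1 level per kilobase was 60.9% and 56.6% in untreated Empty, 97.8% and 91.0% in treated Empty, 96.9% and 96.0% in untreated NeuT, and 133.9% and 164.8% in treated NeuT libraries. The FTH1 to FTL ratio per kilobase kept within 1.91 to 2.101 over all 8 libraries, with the pseudogene counts left out.

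**Figure D4:**
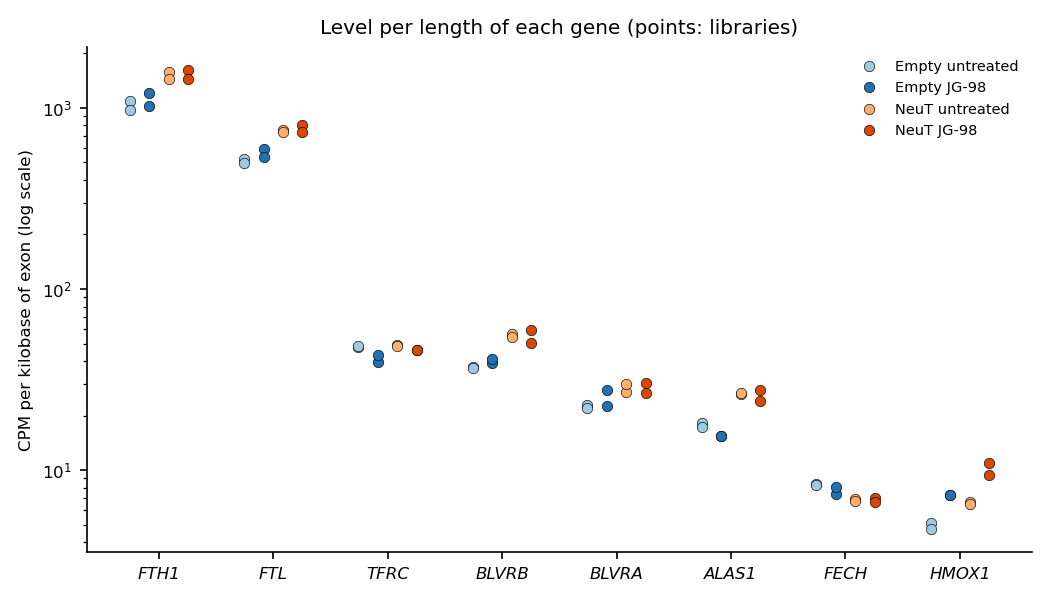
Level of the 8 tested genes per kilobase of exon, in CPM per kilobase on a log axis; points are libraries, coloured by group. The ferritin subunits lie above the rest in every library, and HMOX1 lies below FECH in Empty and untreated NeuT libraries and above it in NeuT with JG-98. The order between genes depends on the deposited exonic lengths.

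The wider set comprised 85 genes on 6 lists: heme synthesis (15 genes), heme breakdown and transport (17), iron uptake (12), iron storage and export (11), iron and heme sensing and regulation (10) and iron-sulfur cluster assembly (20). Of these, 77 were tested, and the 8 others, among them HMOX2, had 0 to 3 counts per library. HMOX2, the constitutive heme oxygenase, had at most 1 count per library. The adjoining genes DNAJA3, NMRAL1, CORO7 and PAM16, looked up after these values were seen, had at most 10 counts, while UBALD1 just beyond had 1257 to 1777; HMOX2 is therefore given only as listed near 0.

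With JG-98, the gene besides HMOX1 that passed the test in both lines was MAFF, a small MAF protein that pairs with NRF2 and BACH1 on DNA. It was at 21.1 and 20.2 CPM in untreated and 34.3 and 28.6 CPM in treated Empty cells (log2 0.60, SE 0.101, adjusted p = 0.0136). In NeuT cells it was at 32.4 and 35.4 CPM untreated and 41.8 and 50.1 CPM treated (log2 0.44, SE 0.0964, adjusted p = 0.0210). Both MAFF calls depended on single libraries: in Empty, adjusted p was 0.137 or 0.281 without either untreated library and 0.314 without JG-98 replicate 1; in NeuT, it was 0.247 or 0.117 without either untreated library, 0.118 without JG-98 replicate 2 and 0.0604 with the NeuT libraries fitted alone. Of the 77 tested list genes 2 were called in Empty, both higher (2.6%, beside 0.339% of all tested genes), and 4 in NeuT, all higher (5.19%, beside 3.01%). Unadjusted p was below 0.05 for 7 higher and 8 lower list genes in Empty (19.5%, beside 9.83% of all tested genes) and for 8 and 8 in NeuT (20.8%, beside 16%). DESeq2 also called TFRC lower in Empty and PCBP1 lower in NeuT; limma-voom called the genes that edgeR called.

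The other 2 genes called in NeuT were BACH1, the heme-binding repressor of HMOX1, and SLC39A14, a transporter of zinc and non-transferrin iron. BACH1 was at 29.7 and 29.9 CPM in untreated and 34.4 and 42.0 CPM in treated NeuT cells (log2 0.36, SE 0.088, adjusted p = 0.0328). In Empty cells it was at 18.7 and 18.8 CPM untreated and 15.4 and 16.4 CPM treated (log2 -0.23, SE 0.094, adjusted p = 0.404). The libraries thus lay on opposite sides in the 2 lines, and the difference between the changes was 0.59 (SE 0.129, adjusted p = 0.296), called by DESeq2 alone among the 3 tools. The NeuT call of BACH1 was lost under 8 alternatives, with an adjusted p of up to 0.322, without JG-98 replicate 2, where the log2 difference was 0.20. SLC39A14 was at 180.6 and 171.9 CPM in untreated and 207.6 and 250.5 CPM in treated NeuT cells (log2 0.38, SE 0.0741, adjusted p = 0.0108). Its call was lost without untreated replicate 1 (adjusted p = 0.0904) or replicate 2 (0.215) and with the NeuT libraries fitted alone (0.0781). Without JG-98 replicate 2 the SLC39A14 difference was 0.23 on the log2 scale and still called.

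**Figure D5:**
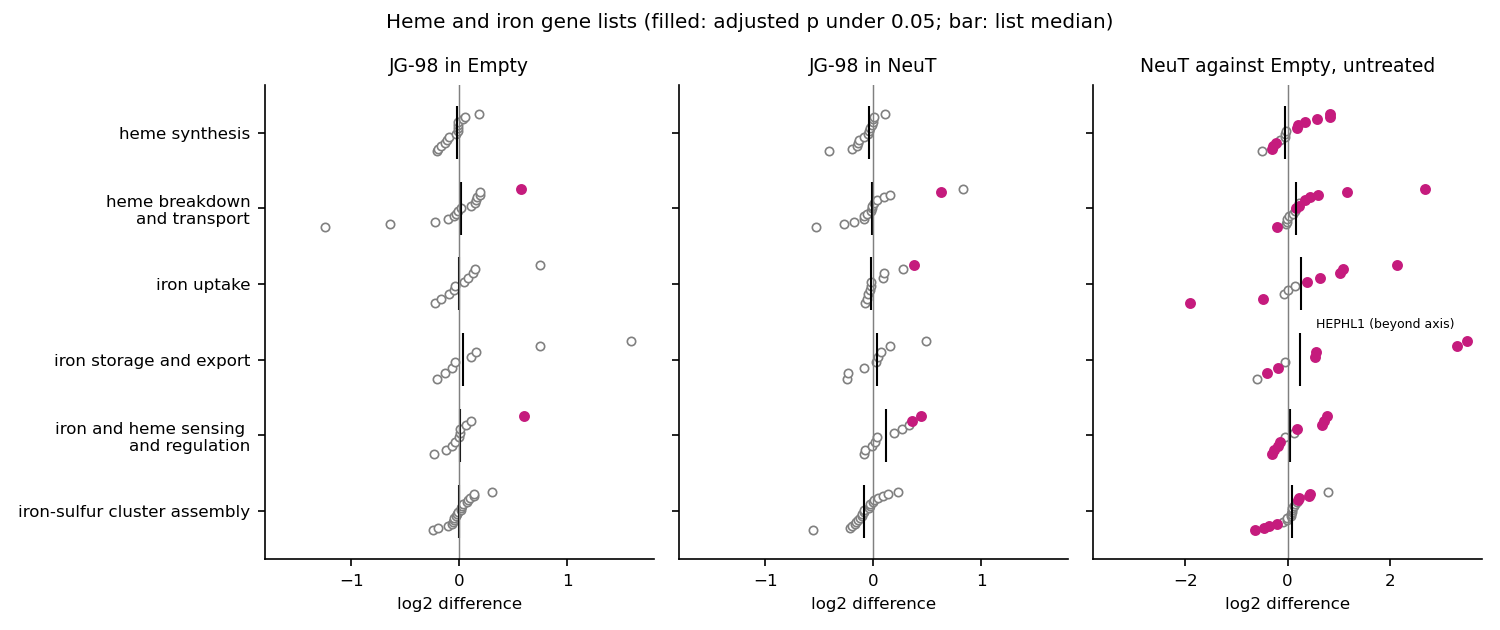
Log2 differences of the tested genes on the 6 heme and iron lists with JG-98 in Empty, with JG-98 in NeuT, and between untreated lines (NeuT minus Empty); each point is a gene, filled at an adjusted p below 0.05, and the bar is the list's median. With JG-98, 2 genes are filled in Empty and 4 in NeuT, and 46 are filled between the untreated lines.

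Between the untreated lines 46 of the 77 tested list genes were called, 30 higher and 16 lower in NeuT (59.7%, beside 42% of all tested genes). Without the 9 genes described above it was 39 of 69, 24 higher and 15 lower. By list, the counts higher and lower were 6 and 3 of 14 for heme synthesis, 7 and 1 of 15 for heme breakdown and transport, and 5 and 2 of 10 for iron uptake. They were 4 and 2 of 8 for iron storage and export, 4 and 4 of 10 for sensing and regulation, and 4 and 4 of 20 for iron-sulfur cluster assembly. Under JG-98, 31 were higher and 17 lower (62.3%, beside 41.7%).

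On the lists of heme breakdown and transport, iron uptake, and iron storage and export, the genes named next had the largest called differences between the lines among those with a mean of at least 50 counts, apart from BLVRB, FTH1 and FTL given above. LRP1, a receptor that also takes up heme bound to hemopexin, was at 6.22 and 7.13 CPM in untreated Empty and 44.3 and 42.1 CPM in untreated NeuT cells (log2 2.69 untreated and 3.01 under JG-98, SE 0.132 and 0.137). FLVCR2, another transporter on the heme list, was higher by 1.16 untreated and 0.64 under JG-98 on the log2 scale; the latter call was lost without either Empty JG-98 library (adjusted p = 0.0596 and 0.104) or NeuT JG-98 replicate 1 (log2 0.28, adjusted p = 0.338). Of the 4 STEAP genes on the uptake list 3 were called higher in NeuT in both conditions. They were STEAP2 (log2 2.13 untreated, 1.48 under JG-98), STEAP1 (1.02 and 0.85) and STEAP3 (0.63 and 0.75). STEAP1 and STEAP3 were not among the largest on their list and were added after their values were seen. STEAP4 was lower (log2 -1.90 and -1.76). The metal importer SLC39A8 was at 127.3 and 123.5 CPM in untreated Empty and 265.3 and 263.3 CPM in untreated NeuT cells (log2 1.08, SE 0.0559, adjusted p = 1.11e-10). HEPHL1, a ferroxidase, had 0 to 2 counts in the Empty libraries and 280 to 359 in the NeuT libraries. Under JG-98, SLC46A1, a folate transporter that also carries heme, was called higher (log2 0.69, adjusted p = 0.00746); 60.6% of its exonic bases are shared with other genes.

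Of the 10 genes of iron and heme sensing and regulation, 4 were called higher and 4 lower in untreated NeuT cells. ACO1, which doubles as cytosolic aconitase, was higher in NeuT (log2 0.77, SE 0.0604, adjusted p = 1.98e-08), as were MAFF (log2 0.71) and BACH1 (log2 0.67), and under JG-98 the values were 0.72, 0.55 and 1.26. IREB2, the other iron regulatory protein, was lower (log2 -0.30 untreated, -0.24 under JG-98), and the latter call was lost without Empty JG-98 replicate 2 (adjusted p = 0.102). NFE2L2, which encodes NRF2, was called lower in untreated NeuT cells (log2 -0.19) and not called under JG-98 (log2 0.00). Its call was lost without untreated Empty replicate 2, NeuT replicate 1 or NeuT replicate 2, at an adjusted p of up to 0.172. EIF2AK1, which encodes HRI, was at 161.9 and 161.1 CPM in untreated Empty and 148.7 and 141.2 CPM in untreated NeuT cells (log2 -0.16, adjusted p = 0.0333), and the difference was -0.25 under JG-98 (adjusted p = 0.00191). The untreated EIF2AK1 call was lost with no filter on low counts and without each of the 4 untreated libraries, at an adjusted p of up to 0.343. Of the iron-sulfur genes, IBA57 (log2 -0.63) and the mitochondrial chaperone HSPA9 (log2 -0.46) were lower in untreated NeuT cells and LYRM4, a partner of the cysteine desulfurase, was higher (log2 0.44). Under JG-98 the 3 named by size were IBA57 (log2 -0.61), the glutaredoxin GLRX5 (log2 -0.60) and HSCB (log2 0.47). The HSCB call was lost under 4 alternatives, with adjusted p up to 0.213, and the call of the mitochondrial transporter ABCB6 under JG-98 (log2 -0.81, adjusted p = 0.046) under 12, up to 0.256.

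The genes whose pattern over the 8 libraries was most like that of HMOX1 were picked by Pearson correlation of log2 CPM among 13115 genes. They were TRIB3 (r = 0.990), PRSS8 (0.986), RNF214 (0.984), RNF41 (0.982) and SARS1 (0.982); the libraries share 4 groups, and the values are a description. RNF214 was called in none of the comparisons (adjusted p = 0.586 and 0.348 with JG-98 in Empty and NeuT, 0.19 and 0.155 between untreated and treated lines). TRIB3, a pseudokinase, was at 50.1 and 45.5 CPM in untreated Empty, 98.03 and 88.6 in treated Empty, 69.9 and 74.7 in untreated NeuT and 152.2 and 204.5 CPM in treated NeuT libraries. SARS1, the seryl-tRNA synthetase, was at 176.7 and 172.5, 226.4 and 206.1, 201.4 and 205.0, and 250.6 and 267.9 CPM in the same groups. In both genes treated libraries lay above untreated ones in each line, which follows in part from how the genes were picked.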

How the data were processed

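Per the submitters' processing notes, Trim Galore 0.5.0, FastQC 0.11.7, HISAT2 2.1.0, SAMtools 1.9, featureCounts 1.6.3 and limma were used, with build hg38/GRCh38; whether strand was used in counting, and how multiply mapped reads were treated, is not given in the sources used here. The authors deposited raw counts per gene for 8 libraries, which were the values analysed. They also deposited, per the file headers, 2 tables of their own comparisons with log2 fold changes, p-values and test scores, from which single values are printed as theirs. Titles gave the groups, and 0 columns of per-sample values were left unmatched.

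Symbols came from the reference gene table (60261 of 60617 identifiers matched). Counts were fitted with edgeR 4.0.16 (quasi-likelihood, robust) in R 4.3.3: all 8 libraries in 1 fit, filterByExpr (minimum count 10, total 15; 17693 genes kept), TMM scaling, 5 contrasts, Benjamini-Hochberg adjustment, and called at an adjusted p under 0.05. SE is the log2 difference divided by the square root of F. Levels per kilobase used the deposited exon lengths. Alternatives used DESeq2 1.42.0, limma-voom 3.58.1, other scalings and filters, a replicate block, and leaving out each library.

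The genes and lists were chosen with earlier results of these data known. Named genes were the 9 genes, every list gene called with JG-98, up to 3 called genes per list with the largest difference between lines at a mean count of at least 50, the 5 genes most like HMOX1, and, chosen after their values were seen, further heme synthesis enzymes (1 is not reported here), STEAP1, STEAP3, IREB2, NFE2L2, EIF2AK1, PCBP1, marker genes and neighbouring genes. On simulated counts for 17693 genes, 80% of genes changed by log2 0.6 and 91% of those changed by log2 1 were recovered for JG-98 in NeuT. For the difference between lines in the change 63% and 77% were recovered. False calls numbered 19 and 16. The changed genes were drawn from those with a mean of at least 50 counts, and the simulated lines did not otherwise differ.

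The 2 libraries of a group differed by more than sampling noise, and none was counted as a duplicate. Chi-square per gene was 4.27 in untreated Empty, 7.54 in Empty with JG-98, 4.37 in untreated NeuT and 19.9 in NeuT with JG-98.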

Additional observations from a re-analysis of the deposited data

How the results depend on the processing

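With 2 libraries per group, the calls with JG-98 in Empty cells depended on single libraries. The number of the 9 genes called in that comparison was 1, and 2 (HMOX1 and TFRC) with no filter on low counts, with DESeq2 and with the Empty libraries fitted alone; leaving out 1 library gave 0 to 2. The HMOX1 difference there was 0.512 to 0.631 on the log2 scale when 1 library was left out, with adjusted p from 0.000214 to 0.31. Leaving out 1 library gave 1 called gene in every case for JG-98 in NeuT, 0 for the difference between lines in the change, 6 to 7 between untreated lines and 5 to 7 between treated lines. Over all tested genes, the number called ranged over the alternatives from 9 to 417 for JG-98 in Empty (60 as reported), from 132 to 2133 in NeuT (533), from 1 to 777 for the difference between lines in the change (1), from 5461 to 8690 between untreated lines (7423) and from 5951 to 7571 between treated lines (7380). The cause was not tested.

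Changes of sign occurred where differences were not called. For JG-98 in NeuT, BLVRA was -0.00354 with size factors by relative log expression and -0.00357 with DESeq2. Leaving out 1 library gave BLVRA from -0.0993 to 0.0876, BLVRB from -0.154 to 0.0901, ALAS1 from -0.142 to 0.0616, FECH from -0.0429 to 0.0228, FTH1 from -0.0575 to 0.0968 and FTL from -0.0219 to 0.0895. It gave FTH1 with JG-98 in Empty from -0.0045 to 0.217, and the difference between lines in the change from -0.0809 to 0.153 for HMOX1 and from -0.19 to 0.0314 for FTH1. TFRC between untreated lines was -0.0575 with scaling by total counts.

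The shared replicate numbers were not taken as pairing: replicate differences correlated between groups at -0.101 to 0.244 over 9551 genes. With the replicate block, BLVRA with JG-98 in NeuT was -0.00239, ABCB6 between treated lines had an adjusted p of 0.054, and the calls of the other genes tried, ALAD, UROS, IREB2, NFE2L2 and EIF2AK1 included, held; 66 genes were called with JG-98 in Empty and 593 in NeuT. With the numbers of the untreated NeuT libraries crossed, an alternative chosen after seeing the data, 795 were called in NeuT. SLC40A1 and the 7 other untested list genes had at most 3 counts per library, and the cause was not tested.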
